A study of Mus musculus with 6 samples.

Results

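The genes of apolipoprotein E and of proteins that bind, process or take up its particles were followed through every cell type of the mouse cortex at postnatal day 5 (P5). These were 7 of the 17418 genes counted, chosen by name: *Apoe* and *Clu* (secreted apolipoproteins), *Lpl* (lipoprotein lipase) and the receptors *Lrp1*, *Lrp8*, *Vldlr* and *Sorl1*. Single-cell RNA sequencing with InDrop, a droplet method that counts transcripts from their 3′ ends with unique molecular identifiers (UMIs), was run on dissociated cortex of 3 WT and 3 *Fmr1*-KO mice. The WT mice were of the strain FVB.129P2-Pde6b+ Tyrc-ch/AntJ, and the knockouts of FVB.129P2-Pde6b+ Tyrc-ch Fmr1tm1Cgr/J, which carries a germline null allele of *Fmr1*, the gene of the RNA-binding protein FMRP. Mice of both sexes were used at the same age, and the labels name no treatment. WT 1, *Fmr1*-KO 1 and *Fmr1*-KO 2 were collected in batch 1 with InDrop beads of version V2, and WT 2, WT 3 and *Fmr1*-KO 3 in batch 2 with version V3.8, so that the effects of batch and bead version cannot be told apart. The cell types were those the authors deposited.

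In the brain, apolipoprotein E is the main protein of the lipid particles that glia secrete, and clusterin, the product of *Clu*, is another apolipoprotein of these particles and an extracellular chaperone. Lipoprotein lipase splits the triglycerides of particles. Lipoprotein receptors at the cell surface take the particles up, and some of them have other roles: LRP8, also called ApoER2, and VLDLR are the receptors of reelin, which guides the layering of the cortex, and LRP1 is a large endocytic receptor with many ligands. SORL1 is a sorting receptor that carries cargo between the Golgi apparatus and endosomes. Astrocytes are known as the main source of apolipoprotein E in the healthy brain, with microglia as another source.

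After removal of 1113 cells that the authors marked as doublets, 17280 cells in 18 subtypes remained. The mice held from 8070039 to 20677233 UMIs, with a median per cell between 1688 and 4897. Among 14 marker lists, 13 were highest in the subtype of their name. The list of border macrophages was the exception, with a summed 8668 counts per 1000000 UMIs (CPM) in the 12 border macrophages and 14870.1 CPM in the 45 cells called Ms4a7_high. *Fmr1* stood at 68.4, 74.1 and 72.5 CPM over all cells of the WT mice and at 17.2, 19.9 and 16.1 CPM in the *Fmr1*-KO mice, so every mouse followed its label, although 3′ counts do not read the disrupted site itself. Of 15463 distinct cell barcodes, 2231 occurred in more than 1 library, of which 341 were found in more than 1 mouse. Outside the astrocyte subtypes, 4502 of 10158 cells held at least 1 UMI of the astrocyte markers *Aqp4*, *Gja1*, *Slc1a2* or *Mlc1*. Some of these markers were high in other types too, with *Gja1* at 1185 CPM in fibroblasts and 1364 CPM in Astrocytes_1, and *Mlc1* at 727 CPM in ependymal cells and 957 CPM in Astrocytes_1, and how many of these UMIs came from free RNA was not tested.

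The genes lie on 7 chromosomes (mm10, GENCODE vM21). *Apoe* is at chr7:19696109-19699188 on the minus strand, *Clu* at chr14:65968483-65981547 and *Lpl* at chr8:68880491-68907448, both on the plus strand. Of the receptors, *Lrp1* is at chr10:127538161-127621148 and *Sorl1* at chr9:41964720-42124297, both on the minus strand. *Lrp8* is at chr4:107802261-107876840 and *Vldlr* at chr19:27216484-27254231, both on the plus strand. All 7 are protein-coding, and their values count UMIs over the whole gene, with no separation of isoforms. Since the level of a gene in 3′ counts also depends on how its end is read, levels were compared between cell types within a gene and not between genes.

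Levels were computed in CPM, from UMIs summed per mouse and subtype, and are given as mean ± SD over the mice with at least 10 cells of the subtype. The subtypes had been clustered on these same counts, so their levels are a description without a test. The paper also names *Apoe* among its markers of Astrocytes_1 and *Lpl* among those of excitatory neurons, so high levels there follow in part from the labels. *Apoe* was highest in the larger astrocyte subtype, Astrocytes_1, at 8806 ± 2262 CPM (n = 6). Its levels there were 6311, 10789.7 and 10483.6 CPM in WT 1, 2 and 3 and 6953, 7035 and 11262 CPM in *Fmr1*-KO 1, 2 and 3. The 3 mice of batch 2 were all above the 3 of batch 1, whereas the genotypes overlapped. Astrocytes_2 followed at 4377 ± 1062 CPM and was below Astrocytes_1 in 6 of 6 mice. Astrocytes of both subtypes held a median of 93.1% of all *Apoe* UMIs of a mouse, with a range from 90.7 to 95.9%.

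Outside the astrocytes, *Apoe* stood at 2803 ± 1255 CPM in fibroblasts (n = 3), 2609 ± 939 CPM in microglia (n = 6) and 1725 ± 298 CPM in ependymal cells (n = 6). These neighbours in the order did not differ beyond their spread, since fibroblasts were above microglia in 2 of 3 mice and microglia above ependymal cells in 4 of 6. In microglia, the resident macrophages of the brain, the values were 3601, 1864 and 1562 CPM in WT 1 to 3 and 3885, 2249.5 and 2493 CPM in *Fmr1*-KO 1 to 3. WT 1 and *Fmr1*-KO 1 were the highest here, in contrast to Astrocytes_1, where both were among the lower mice. The Ms4a7_high cells, named for a gene of macrophages, reached 9723 CPM in WT 3, the only mouse with 10 or more of them, beside 10483.6 CPM in its Astrocytes_1.

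The remaining subtypes held little *Apoe*. OPC_2 had 698 ± 296 CPM (n = 5), OPC_1 (oligodendrocyte precursor cells) 349 ± 105 CPM and excitatory neurons 283 ± 116 CPM. Ganglionic neurons, pericytes and endothelial cells lay between 214 and 256 CPM, oligodendrocytes at 140.5 ± 107 CPM, interneurons at 118 ± 40.6 CPM, SVZ cells (neuronal cells with *Eomes* and *Neurod1*) at 96.5 ± 60.3 CPM (n = 4) and CR cells (with the markers of Cajal-Retzius cells) at 70.4 ± 43.1 CPM (n = 5). From OPC_1 downward, no 2 subtypes next to each other in the order of their means stood in the same order in every mouse with enough cells of both. The mean in Astrocytes_1 was 125-fold that in CR cells.

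Shares of cells with *Apoe* were compared at equal depth. With each cell thinned to 700 UMIs, which left out 41 shallower cells, *Apoe* was found in 96.8% of Astrocytes_1, 87.9% of Astrocytes_2, 64.3% of ependymal cells and 56.8% of microglia. Ependymal cells were thus above microglia by share and below them by mean CPM, so no order of these 2 types is read from the shares. The unthinned shares were 99.5%, 98.0%, 91.8% and 78.0%. As low types, 12.5% of the 16 T cells, 8.13% of the 123 CR cells and 4.62% of the 65 SVZ cells held an *Apoe* UMI at that depth. Without thinning these shares were 18.8%, 27.6% and 18.5%. Thinned shares were 11.6% in oligodendrocytes and 9.20% in interneurons, within the range of these low types, and 14.2% in endothelial cells, above all of them. The low types hold few cells, and whether *Apoe* in the other types exceeded background was not tested. At full depth the median UMIs per cell were 3755 in Astrocytes_1, 2656 in microglia and 1556 in T cells.

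*Clu* was higher in Astrocytes_2 than in Astrocytes_1, the opposite of *Apoe*. It stood at 1342 ± 306 CPM in Astrocytes_2 and 701 ± 100.1 CPM in Astrocytes_1, with Astrocytes_2 above in 6 of 6 mice. In Astrocytes_2 the values were 1087, 1798 and 1663 CPM in the WT mice and 1199, 1147 and 1158 CPM in the *Fmr1*-KO mice. WT 2 and WT 3 were the highest, and WT 1 was below all 3 knockouts. Ependymal cells, the ciliated lining of the ventricles, followed at 365 ± 108 CPM, below Astrocytes_1 in each of the 6 mice. Excitatory neurons had 97.4 ± 25.1 CPM and OPC_1 88.4 ± 12.8 CPM, while microglia had 13.9 ± 9.83 CPM and endothelial cells 6.14 ± 4.22 CPM. Astrocytes held a median of 91.6% of the *Clu* UMIs of a mouse.

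*Lpl* was at similar levels in microglia and in excitatory neurons and low in other types. Microglia had 453, 476 and 341 CPM in the WT mice and 499, 341 and 517 CPM in the *Fmr1*-KO mice. Excitatory neurons had 403, 447 and 505 CPM in the WT mice and 332, 365 and 504 CPM in the *Fmr1*-KO mice. With means of 438 ± 78.2 and 426 ± 71.9 CPM and microglia above in 4 of 6 mice, the 2 types did not differ beyond their spread. Interneurons, the inhibitory neurons, had 63.2 ± 42.2 CPM and were below excitatory neurons in 6 of 6 mice, and Astrocytes_1 had 17.4 ± 5.11 CPM. There were 2160 excitatory neurons and 810 microglia, and excitatory neurons held a median of 58.6% of the *Lpl* UMIs (33.6 to 66.9%) and microglia 16.2% (12.9 to 36.0%).

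*Lrp1* was found in most types. It was highest in OPC_1 at 762 ± 191 CPM, followed by fibroblasts at 636 ± 28.5 CPM (n = 3), microglia at 556 ± 124 CPM and Astrocytes_1 at 440.5 ± 65.6 CPM. OPC_1 had 559, 946 and 1008 CPM in the WT mice and 585, 652 and 819 CPM in the *Fmr1*-KO mice. The 3 mice of batch 2 were again above the 3 of batch 1. Fibroblasts were above microglia in 2 of 3 mice and microglia above Astrocytes_1 in 5 of 6, so these neighbours did not differ beyond their spread. Excitatory neurons had 247 ± 59.3 CPM, ganglionic neurons 66.6 ± 21.6 CPM and endothelial cells 29.6 ± 10.9 CPM, the lowest of the 15 subtypes with enough mice.

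*Lrp8* had another pattern. Its level was highest in endothelial cells, which line the vessels, at 1105, 1027 and 1122 CPM in the WT mice and 854, 826 and 1237 CPM in the *Fmr1*-KO mice. *Fmr1*-KO 3 was the highest mouse and the other 2 knockouts the lowest, so the genotypes overlapped. The mean there was 1029 ± 161 CPM, and SVZ cells had 911 ± 222 CPM (n = 4). Endothelial cells were above SVZ cells in 3 of 4 mice, so the 2 types did not differ beyond their spread. *Lrp8* stood at 237 ± 24.3 CPM in interneurons, 164 ± 23.8 CPM in excitatory neurons and 91.5 ± 4.68 CPM in Astrocytes_1, and it was low in pericytes (15.2 ± 10.4 CPM), microglia (7.44 ± 6.28 CPM) and fibroblasts (2.83 ± 4.91 CPM). Endothelial cells held a median of 39.9% of all *Lrp8* UMIs, with a wide range between mice from 26.3 to 64.9%.

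*Vldlr*, the other reelin receptor, was nearly absent from endothelial cells, at 1.68 ± 1.91 CPM. It was highest in oligodendrocytes, the myelin-forming cells, with 135, 291 and 281 CPM in the WT mice and 168, 225 and 259 CPM in the *Fmr1*-KO mice. The lowest of these values came from the 2 mice with the fewest oligodendrocytes, WT 1 with 26 and *Fmr1*-KO 1 with 24 cells. The mean of 227 ± 63.3 CPM was above that of excitatory neurons (168 ± 41.9 CPM) in 5 of 6 mice, which is within the spread, and it was 161 CPM after thinning to 700 UMIs. OPC_1 had 128 ± 25.9 CPM. The astrocyte subtypes stood apart, with 109 ± 15.2 CPM in Astrocytes_1 and 25.1 ± 9.20 CPM in Astrocytes_2.

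*Sorl1* was highest in ependymal cells at 178 ± 62.7 CPM, above Astrocytes_1 in 6 of 6 mice. Astrocytes_1 had 47.2, 151 and 154 CPM in the WT mice and 74.8, 73.2 and 130.2 CPM in the *Fmr1*-KO mice. All 3 mice of batch 2 were above those of batch 1. The mean of 105 ± 45.6 CPM was above excitatory neurons (88.3 ± 24.1 CPM) in 4 of 6 mice and so within the spread. *Sorl1* was low in OPC_1 (20.8 ± 14.3 CPM) and was not found in OPC_2, in 0 of 104 cells, which allows a share of up to 2.88% of cells with a UMI. In the 12 border macrophages, 9 UMIs gave 377 CPM. These floors and counts cover counting error only.

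**Figure D1:**
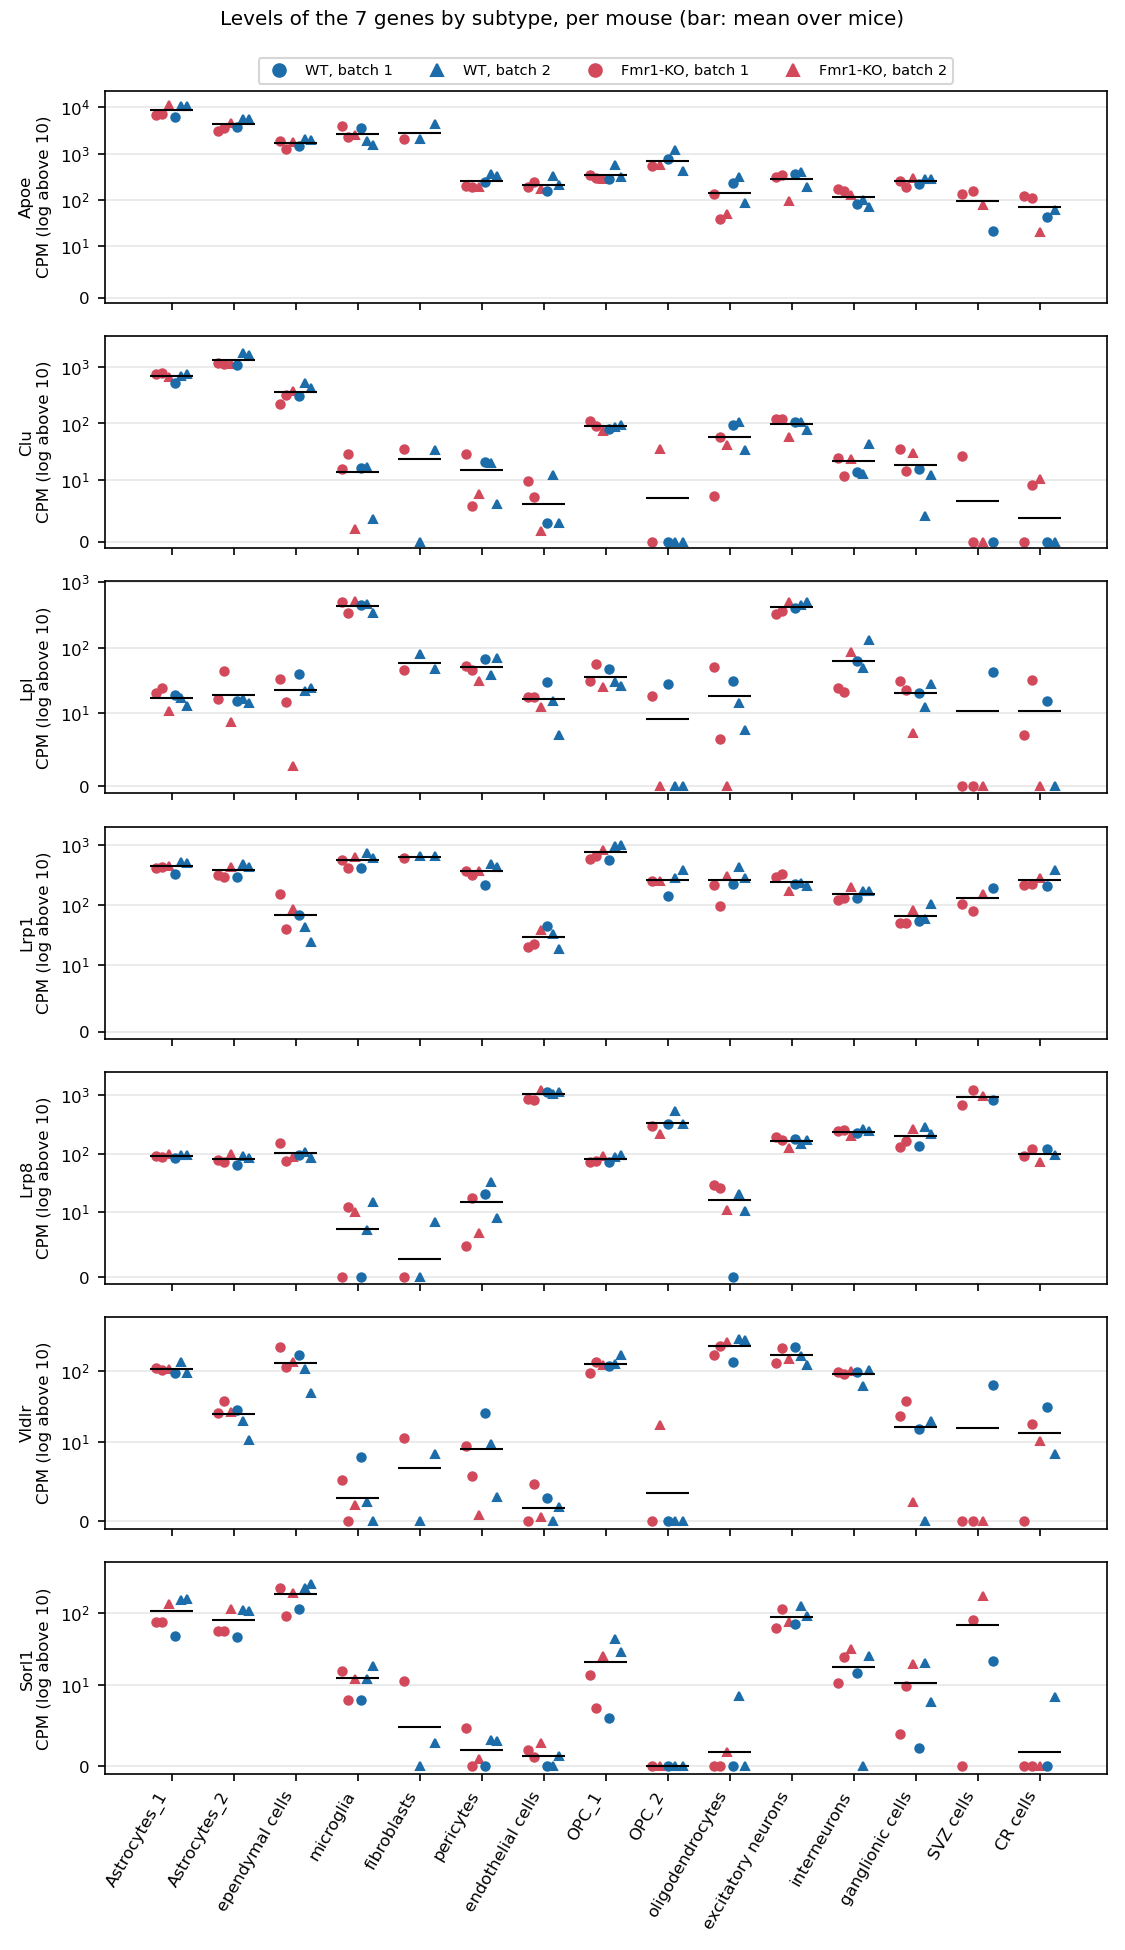
Levels of the 7 genes by cell subtype, in CPM on a scale that is logarithmic above 10, with 1 point per mouse and the mean as a bar. *Apoe* and *Clu* are highest in the astrocyte subtypes, *Lpl* in microglia and excitatory neurons, *Lrp1* in OPC_1, *Lrp8* in endothelial and SVZ cells, *Vldlr* in oligodendrocytes and *Sorl1* in ependymal cells.

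Since free RNA from 1 source keeps its genes in 1 ratio, the UMIs of each gene were divided by the summed UMIs of 10 astrocyte markers and set relative to the same ratio in Astrocytes_1 of that mouse. A value near 1 is the one that free astrocyte RNA alone would give. For *Apoe* the relative ratio was 23.8 in microglia (median, 12.6 to 34.0 over mice) and 76.1 in the Ms4a7_high cells of WT 3. It was 1.147 in excitatory neurons (0.637 to 1.30), 0.868 in interneurons, 0.815 in endothelial cells and 0.796 in oligodendrocytes (0.364 to 1.44). *Apoe* in these last 4 types thus stood close to the ratio that free astrocyte RNA would give.

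For pericytes the ratio depended on the markers chosen: it was 0.188 against the 10 markers. Against *Aqp4*, *Gja1*, *Slc1a2* and *Mlc1* alone, with UMIs pooled over mice, it was 2.41 in pericytes, 2.41 in fibroblasts, 1.03 in oligodendrocytes and 22.2 in microglia. The ratio of the other genes to the markers was far from 1 in their leading types: 618 for *Lpl* in excitatory neurons, 386 for *Lrp8* in endothelial cells, 121 for *Vldlr* in oligodendrocytes and 21.2 for *Lrp1* in OPC_1. *Clu* stood at 4.38 in excitatory neurons and 3.89 in ependymal cells.

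**Figure D2:**
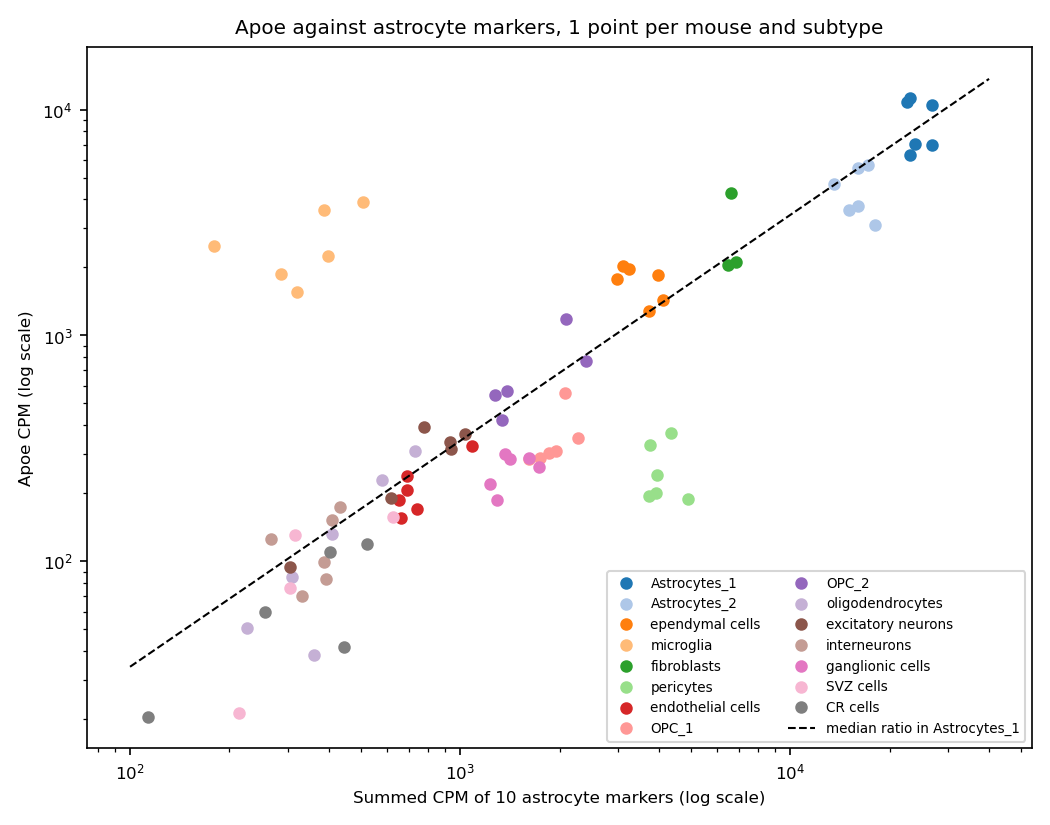
*Apoe* level against the summed level of 10 astrocyte markers, both in CPM on log scales, by subtype and mouse, with a line at the ratio of Astrocytes_1. Most subtypes lie near the line, pericytes lie below it, and microglia lie above it, at a median of 23.8 times the ratio of Astrocytes_1.

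Genes with the most similar pattern were sought among 9552 genes by Pearson's r of the mean log2(CPM + 1) over 15 subtypes, which share libraries, depth and free RNA, so that r is a description. *Apoe* was most like *Sdc4* (r = 0.90), a cell surface heparan sulfate proteoglycan, *Zfyve21* (0.88) and *Glul* (0.88), the glutamine synthetase of astrocytes. *Clu* was most like *Adhfe1* (0.93), *Raver2* (0.92) and the astrocyte marker *Aldoc* (0.92), and *Lpl* like *Rgs10* (0.88), *Sla* (0.87) and *Igf1* (0.86). For *Lrp1* the values were lower, with *Tnfsf12* at 0.80, *Coa5* at 0.75 and *Gpd1l* at 0.72. *Lrp8* was most like *Rgs12* (0.91), *Dnajb5* (0.88) and *Git1* (0.88), *Vldlr* like *Ncam2* (0.91), *Lekr1* (0.89) and *Kctd4* (0.87), and *Sorl1* like *Gabrb1* (0.91), *Wwc1* (0.88) and *Tenm3* (0.86). Among the 7 genes themselves, r was highest for *Clu* and *Sorl1* (0.77) and lowest for *Lrp1* and *Lrp8* (-0.65).

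Partners of these genes were placed in the same way. *Reln*, which encodes reelin, stood at 11847 CPM in CR cells and 299 CPM in excitatory neurons, its next subtype. *Dab1*, the adaptor that binds both reelin receptors inside the cell, was highest in OPC_1 (258 CPM) and Astrocytes_2 (252 CPM). *Abca1*, which loads lipid onto apolipoprotein E, was highest in endothelial cells (381 CPM) and Astrocytes_1 (325 CPM), and *Lcat*, which esterifies the cholesterol of particles, in Astrocytes_1 (89.3 CPM). *Trem2*, a microglial receptor that binds apolipoproteins, stood at 516 CPM in microglia and at no more than 12.4 CPM elsewhere among the 15 subtypes. *Gpihbp1*, the anchor of lipoprotein lipase on endothelium, had 14.8 CPM in endothelial cells. Of 31 genes of sterol synthesis and its control, 18 were highest in Astrocytes_1, among them *Hmgcs1* at 1667 CPM.

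The loss of FMRP was then compared with WT in 11 cell types (neurons together and 10 subtypes, 3 of them neuronal), with edgeR's quasi-likelihood test on UMIs summed per mouse and with batch in the model. A gene entered the test of a type if its UMIs were found in 15% or more of that type's cells. It was called changed at a false discovery rate (FDR) under 0.01 and a log2 fold change of at least 0.20 in size. Of the 77 combinations of gene and type, 46 were tested, 22 with a higher and 24 with a lower level in *Fmr1*-KO, and 1 was changed. Over all genes and types, 0.0141% of 42575 tests were called. At an unadjusted p under 0.05 there were 7 of 46, beside 6.05% of all tests. *Apoe* was tested in 11 types, *Lrp1* in 10, *Lrp8* in 8, *Vldlr* in 6, *Clu* in 5, and *Lpl* and *Sorl1* in 3 each.

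**Figure D3:**
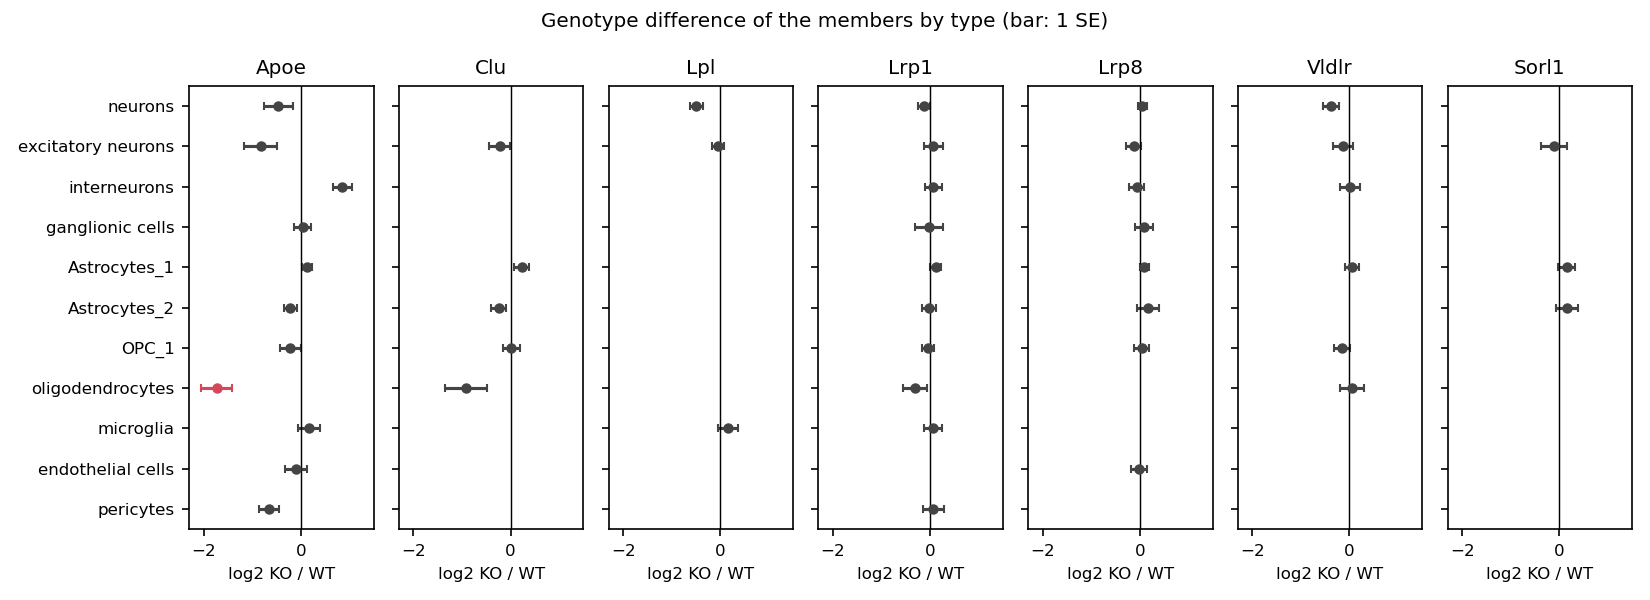
Log2 fold change of *Fmr1*-KO over WT for each gene in each cell type where it was tested, with its standard error. The 46 values run from -1.74 to 0.86, and *Apoe* in oligodendrocytes is the 1 that was changed.

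The changed combination was *Apoe* in oligodendrocytes, a type in which it was low and, as described above, was not tested against background. The WT mice had 228, 308 and 85.2 CPM and the *Fmr1*-KO mice 132, 38.6 and 50.8 CPM. WT 3 was below *Fmr1*-KO 1, so the genotypes overlapped, although the knockouts were lower within each batch. *Apoe* fell by 1.74 on the log2 scale (SE 0.31, edgeR FDR 0.000132), from 207 ± 113 to 73.7 ± 50.6 CPM (SD, 3 mice each), where 0.0423% of the 4726 genes tested in oligodendrocytes were called. Within batches the log2 fold change was -1.42 and -1.93.

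These values rested on few molecules: 22, 106 and 33 *Apoe* UMIs in 26, 98 and 60 cells of the WT mice and 18, 6 and 28 UMIs in 24, 38 and 108 cells of the *Fmr1*-KO mice. The 3 richest cells held from 21.7 to 63.6% of a mouse's *Apoe* UMIs. Astrocyte markers moved with *Apoe*: their sum in oligodendrocytes was 581, 727 and 310 CPM in the WT mice and 410, 360 and 227 CPM in the *Fmr1*-KO mice, with 0 of 10 markers at 0 over all oligodendrocytes. Of these 10 markers, 4 were tested there, and all 4 were lower in *Fmr1*-KO at an unadjusted edgeR p under 0.05, with a median log2 fold change of -0.99 and none changed.

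Without the oligodendrocytes that held a UMI of *Aqp4*, *Gja1*, *Slc1a2* or *Mlc1*, *Apoe* stood at 62.9, 181 and 46.9 CPM in the WT mice and 103, 26.9 and 48.0 CPM in the *Fmr1*-KO mice. Few *Apoe* UMIs remained: 4 (WT 1), 37 (WT 2), 10 (WT 3), 8 (*Fmr1*-KO 1), 3 (*Fmr1*-KO 2) and 20 (*Fmr1*-KO 3). With so few, the loss of a call cannot tell a share of astrocyte RNA from the smaller counts. Without these cells the log2 fold change was -0.91 with an edgeR FDR of 0.998, and the call was lost. It was also lost with DESeq2 (log2 fold change -1.71, unadjusted p 0.0390), with no batch term in edgeR (FDR 0.999) and without WT 1 (edgeR FDR 0.543), WT 2 (-1.10 and 0.999), *Fmr1*-KO 1 (0.221) or *Fmr1*-KO 3 (0.457). In oligodendrocytes the 5 genes with the smallest p were *Apoe*, *Ptn*, *Polr3e*, *Slc1a2* and *Hmgcs1*. *Ptn*, which encodes the secreted growth factor pleiotrophin, was the other gene changed and fell by 1.33 on the log2 scale (edgeR FDR 0.000329). *Slc1a2*, the glutamate transporter of astrocytes, had a log2 fold change of -1.74 (edgeR FDR 0.0660), and *Hmgcs1*, an enzyme of cholesterol synthesis, one of 0.66 (edgeR FDR 0.381).

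In interneurons and pericytes the genotypes did not overlap for *Apoe*, yet neither passed the test. Interneurons had 83.7, 99.5 and 70.5 CPM in the WT mice and 175, 153 and 125 CPM in the *Fmr1*-KO mice, and the log2 fold change was 0.86 (SE 0.20, FDR 0.376 by edgeR). All 3 knockouts were above all 3 WT mice. The astrocyte marker sum in interneurons overlapped between genotypes, with 394, 386 and 331 CPM in WT and 434, 409 and 268 CPM in *Fmr1*-KO. Without interneurons holding 1 of the 4 astrocyte markers, *Apoe* was at 75.1, 75.7 and 79.6 CPM in WT and 135, 77.5 and 77.8 CPM in *Fmr1*-KO, so that the genotypes overlapped and 1 knockout stood apart. Pericytes, the cells that wrap capillaries, had 241, 370.04 and 327 CPM in WT and 201, 195 and 189 CPM in *Fmr1*-KO, and the log2 fold change was -0.65 (SE 0.20, FDR 0.996 by edgeR). Without the cells with these markers the values were 152, 235 and 342 CPM in WT and 241, 195 and 164 CPM in *Fmr1*-KO, and the genotypes overlapped.

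**Figure D4:**
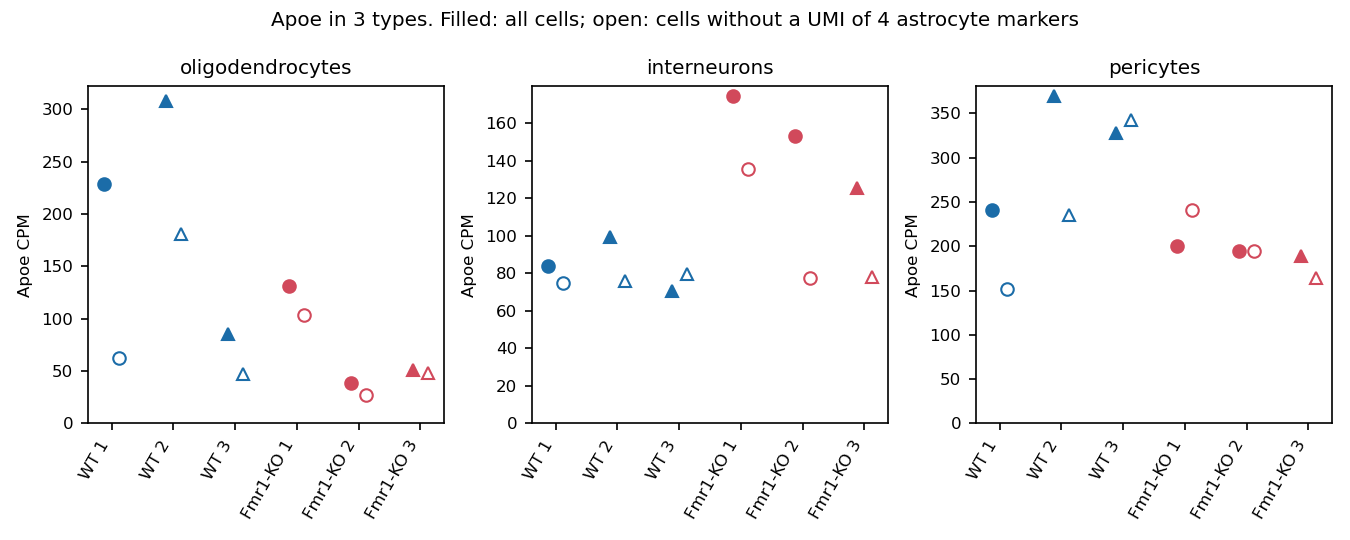
*Apoe* in oligodendrocytes, interneurons and pericytes, in CPM per mouse, in all cells and in the cells without a UMI of *Aqp4*, *Gja1*, *Slc1a2* or *Mlc1*. The 3 *Fmr1*-KO mice lie above the WT mice in interneurons and below them in pericytes with all cells, and the genotypes overlap once cells with astrocyte markers are left out.

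In the types with the most *Apoe*, no genotype difference was called. The log2 fold change was 0.13 (SE 0.10, edgeR FDR 0.924) in Astrocytes_1, -0.22 (SE 0.14, FDR 0.990) in Astrocytes_2 and 0.16 (SE 0.22, FDR 0.999766) in microglia by edgeR. In microglia the value was -0.29 within batch 1 and 0.61 within batch 2, and in Astrocytes_2 it was -0.15 and -0.28. The sign in Astrocytes_1 rested on the batch term, and without it the value was -0.13. In excitatory neurons the value was -0.83 (SE 0.33, edgeR FDR 0.999), but -0.15 within batch 1 and -1.62 within batch 2. There the WT mice had 366, 394 and 191 CPM and the *Fmr1*-KO mice 314, 339 and 94.8 CPM, so that WT 3 and *Fmr1*-KO 3 were the lowest.

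Of the other genes, none was changed in any type. *Clu* had a log2 fold change of 0.24 (FDR 0.924 by edgeR, SE 0.15) in Astrocytes_1 and of -0.24 (SE 0.16, edgeR FDR 0.990) in Astrocytes_2. In both subtypes *Clu* was higher in *Fmr1*-KO within batch 1 and lower within batch 2. In Astrocytes_1 its values were 522, 690 and 766 CPM in WT and 777, 783 and 667 CPM in *Fmr1*-KO, with overlap. In oligodendrocytes *Clu* had 93.4, 105 and 33.6 CPM in WT and 7.31, 57.9 and 41.7 CPM in *Fmr1*-KO, and the log2 fold change was -0.92 (SE 0.43, FDR 0.999 by edgeR).

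*Lpl* in neurons together had 204, 362 and 388 CPM in WT and 110, 150.5 and 294 CPM in *Fmr1*-KO, and the log2 fold change was -0.49 (SE 0.14, FDR 0.158 by edgeR). The knockouts were lower within each batch, by -0.64 and -0.36. The make-up of the neurons moved with it: excitatory neurons, the main neuronal source of *Lpl*, were 56.8, 75.3 and 49.5% of the neurons in WT and 42.0, 48.6 and 35.6% in *Fmr1*-KO, and within excitatory neurons the log2 fold change of *Lpl* was -0.04 (SE 0.13). The part of this make-up in the lower neuronal value was not tested. In microglia it was 0.16 (SE 0.21). *Vldlr* in neurons together had 136, 138 and 108 CPM in WT and 78.5, 113 and 103 CPM in *Fmr1*-KO, and the log2 fold change was -0.37 (SE 0.16, FDR 0.300 by edgeR). Its mean level was 168 CPM in excitatory neurons, 92.5 CPM in interneurons and 16.6 CPM in ganglionic neurons. Within excitatory neurons its log2 fold change was -0.13 (SE 0.20), and within interneurons 0.01 (SE 0.21). The part of the make-up in this value was not tested either.

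In the types where the receptors were most abundant among those tested, the log2 fold changes were near 0. They were -0.04 (SE 0.12) for *Lrp1* in OPC_1, -0.02 (SE 0.16) for *Lrp8* in endothelial cells, 0.05 (SE 0.26) for *Vldlr* in oligodendrocytes and 0.16 (SE 0.18) for *Sorl1* in Astrocytes_1. *Lrp1* ranged from -0.32 to 0.12 over its 10 types and *Lrp8* from -0.13 to 0.18 over its 8, with no unadjusted p under 0.05 in either.

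Whether a genotype difference in a type departed from that in Astrocytes_1 was tested with a type by genotype term and each mouse as a block. Of 37 combinations, 0 passed an FDR of 0.05 by edgeR, and 5 had an unadjusted p under 0.05, beside 4.75% of all genes over the 10 pairs of types. At that FDR 0.0% of 30875 tests over all genes were called. The difference for *Clu* in Astrocytes_2 was -0.54 on the log2 scale (SE 0.12, edgeR FDR 0.118). The 2 subtypes did not have opposite signs within either batch. Within batch 1 the log2 fold change of *Clu* was 0.60 in Astrocytes_1 and 0.11 in Astrocytes_2, and within batch 2 it was -0.12 and -0.60. For *Apoe* the difference was -1.45 (SE 0.52, edgeR FDR 0.990) in oligodendrocytes, 0.95 (SE 0.34, FDR 0.992) in interneurons and -0.65 (SE 0.21, FDR 0.999) in pericytes.

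In 5 lists of genes around particles and receptors, 0 genes were changed in any type by edgeR, and 0 by DESeq2. Since edgeR called only 0.0141% of all tests, this is no result about the lists. At an unadjusted edgeR p under 0.05 there were 1 of 24 tests of particle assembly and lipid loading and 1 of 59 of the other receptors, both lower in *Fmr1*-KO. There were also 1 higher and 2 lower of the 93 tests of receptor handling and 2 higher and 3 lower of the 78 of the reelin pathway. Sterol synthesis had 10 higher and 6 lower of 150. Over all genes and types, 6.05% of tests had such a p. Beside each list, the median log2 fold change of all genes tested was 0.001. The list of particle assembly and lipid loading gave 24 tests, 7 higher and 17 lower in *Fmr1*-KO, with a median of -0.14. It includes *Apom*, an apolipoprotein, at -0.62 in Astrocytes_2 (SE 0.23, edgeR FDR 0.990) and *Abca1* at 0.19 in Astrocytes_1 (SE 0.11, edgeR FDR 0.924). *Lipa*, the lysosomal lipase, had -0.24 in endothelial cells and *Pltp*, a phospholipid transfer protein, -0.19 in pericytes. The list of other receptors gave 59 tests, 24 higher and 35 lower, with a median of -0.06. Of its genes, *Scarb1*, a receptor of high-density lipoprotein, stood at -0.83 in oligodendrocytes, *Lrp6*, a Wnt co-receptor, at -0.61 in Astrocytes_2 and *Lrp11* at -0.22 in neurons.

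Receptor handling and lipase partners gave 93 tests, 59 higher and 34 lower, with a median of 0.04. *Mesdc1* in endothelial cells had -0.93 (SE 0.22, edgeR FDR 0.193), 1 of the 2 lower tests of this list at an unadjusted p under 0.05. It was listed beside *Mesdc2*, and no role of *Mesdc1* itself in receptor handling is shown here. *Angptl4*, an inhibitor of lipoprotein lipase, had 0.43 in endothelial cells (SE 0.17, edgeR FDR 0.352). *Vps35*, a retromer subunit that works with SORL1, had 0.27 and *Sel1l* 0.21, both in OPC_1. The reelin pathway gave 78 tests, 30 higher and 48 lower, with a median of -0.05. Its named genes were *Rapgef1* at -0.69 in oligodendrocytes (SE 0.21, edgeR FDR 0.822), *Itgb1* at 0.35 in neurons, *Crkl* at 0.56 in ganglionic neurons and *Pafah1b1* at -0.44 in pericytes. They encode, in that order, a guanine nucleotide exchange factor, an integrin, an adaptor and the protein LIS1.

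Sterol synthesis and its control gave 150 tests, 94 higher and 56 lower, with a median of 0.07. In Astrocytes_1, 21 of its 24 genes tested were higher in *Fmr1*-KO, with a median of 0.14 and 4 at an unadjusted edgeR p under 0.05, beside 224 of all 4814 genes tested there. In excitatory neurons 12 of 13 and in OPC_1 14 of 16 were higher, with medians of 0.16 and 0.097. In microglia and in endothelial cells 7 of 9 were lower, with medians of -0.37 and -0.27, and in ganglionic neurons 8 of 11, with a median of -0.07. In the other 5 types, from 2 of 4 to 6 of 9 were higher. *Insig1*, which restrains sterol synthesis, had 0.40 in neurons (SE 0.11, edgeR FDR 0.160), *Msmo1* -0.77 in microglia (SE 0.28, edgeR FDR 0.999766) and *Npc2*, a lysosomal cholesterol carrier, -0.42 in ganglionic neurons (SE 0.17, edgeR FDR 0.772).

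More combinations were changed between batches than between genotypes. By the batch coefficient of the same edgeR model, a comparison added after the data were seen, 6 of 46 combinations were changed, beside 11.5% of all 42575 tests, so the share among these genes was near the background. *Apoe* in Astrocytes_1 was 1.69-fold higher in batch 2 (log2 0.75, SE 0.10, edgeR FDR 0.00120), and *Sorl1* was 2.41-fold higher there (log2 1.27, SE 0.18, edgeR FDR 0.00142). In this type 18.6% of all genes were changed between batches. The other 4 were *Sorl1* in Astrocytes_2 (log2 1.12), *Lpl* in neurons (0.98), *Lrp8* in ganglionic neurons (0.83) and *Lrp1* in OPC_1 (0.58), all higher in batch 2. Each batch held both genotypes, and its effect and that of the bead version cannot be told apart. Other combinations were lower in batch 2, and none of those was changed. Among them, the log2 difference of *Apoe* was -1.07 in excitatory neurons (edgeR FDR 0.0222) and -0.68 in microglia (edgeR FDR 0.0803), and that of *Clu* in excitatory neurons was -0.70 (edgeR FDR 0.0209).

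**Figure D5:**
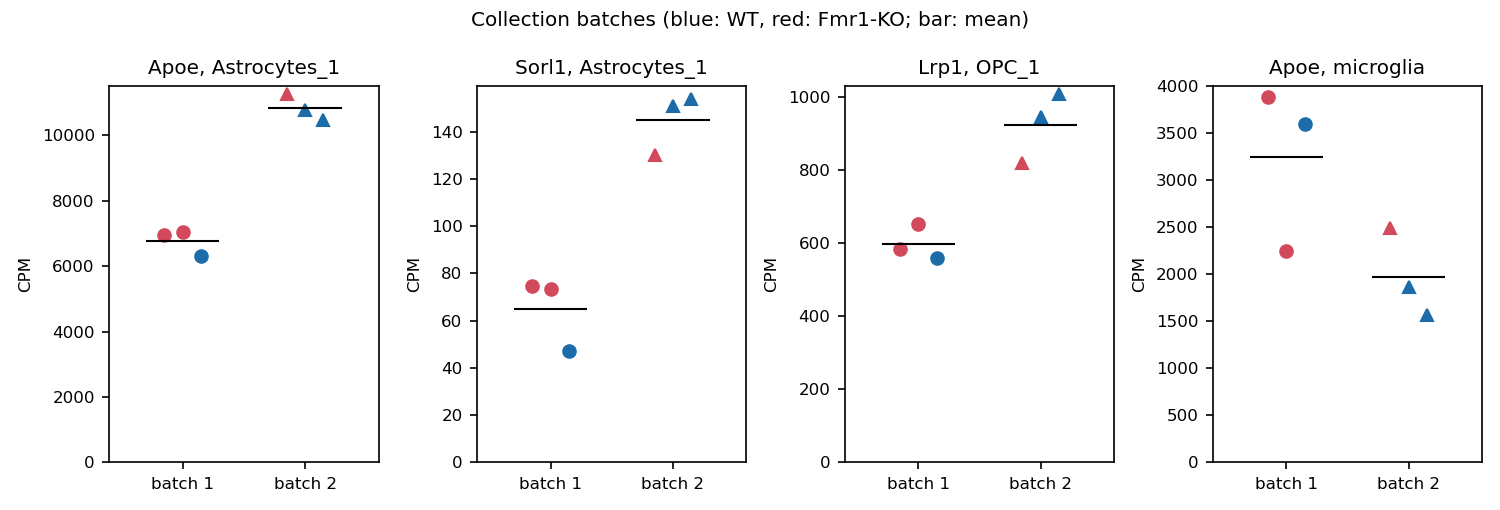
Levels in CPM per mouse by batch for *Apoe* and *Sorl1* in Astrocytes_1, *Lrp1* in OPC_1 and *Apoe* in microglia, with WT in blue, *Fmr1*-KO in red and the mean of each batch as a bar. The 3 mice of batch 2 lie above the 3 of batch 1 for *Apoe* and *Sorl1* in Astrocytes_1 and *Lrp1* in OPC_1, while for *Apoe* in microglia the batches overlap.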

How the data were processed

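The cortex of each of 6 mice (P5, 3 per genotype) was dissociated and captured with InDrop. Reads were aligned to mm10 with TopHat2 2.0.14 (per the submitters' notes) and assigned to genes with ESAT, and reads with several positions were ignored. The authors deposited UMI counts per gene and cell without normalization, and a size factor per cell, a ratio from scran computed within each batch, which was used in an alternative only. The authors deposited the mouse, library and cell type of each cell. Nominally, barcodes under 700 UMIs had been removed, yet 41 of the cells used held fewer, with 410 as the lowest.

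The 7 genes, the marker lists and the pathway lists were chosen with earlier results of these data known. UMIs were summed per mouse and type and tested with edgeR 4.0.16 (R 4.3.3, limma 3.58.1): TMM scaling, quasi-likelihood test, batch as covariate, a filter that kept genes found in 15% or more of a type's cells, Benjamini-Hochberg adjustment over all genes tested in the type, mice with under 10 cells left out, types with at least 100 cells per genotype. Mice were the replicates. The edgeR test shares variance between genes, so a p-value does not measure the spread of 1 gene between mice alone. For *Apoe* in oligodendrocytes the SE was 0.31 by edgeR (unadjusted p 2.8e-08) and 0.83 by DESeq2 (unadjusted p 0.0390). Named were, beside the 7 genes and *Fmr1*, the 3 genes with the most similar pattern for each (mean of at least 50 CPM in 1 or more subtypes), up to 4 genes per pathway list with the smallest p and 1 sign in both batches, and up to 5 genes with the smallest p in a type with a changed member, and some genes that this rule names are not reported here. The scripts were tested on simulated data. The tests were repeated without TMM, without the batch term, with a block for the replicate number in its place, and with DESeq2 1.42.0, other filters, thinning to 700 UMIs, leaving out cells with astrocyte markers, an FDR of 0.05, and leaving out each mouse. Protein sequences were not used here.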

Additional observations from a re-analysis of the deposited data

How the results depend on the processing

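Only few oligodendrocytes were summed per mouse (24 to 108), which limits the 1 call made. The count of changed combinations of these genes with a type, 1 of 46, became 0 with no batch term, with the replicate block, with DESeq2, with thinning to 700 UMIs (18 tested) and without cells holding astrocyte markers (42 tested). It was 3 of 77 with no filter on low counts, where *Apoe* in excitatory neurons and *Lpl* in neurons joined *Apoe* in oligodendrocytes, and from 0 to 1 with each mouse left out. Only 12 of the 46 combinations kept 1 direction under every alternative. *Apoe* in oligodendrocytes was lower in *Fmr1*-KO under each of the 13 alternatives that could test it, with log2 fold changes from -2.10 to -0.91, and the call was kept under 5. Thinning left it untested, as fewer than 15% of the cells held a UMI.

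Replicate numbers were not taken as pairs of mice. The deviations of same-numbered mice correlated at 0.19 to 0.78 over types for number 1, -0.53 to -0.059 for number 2 and 0.33 to 0.80 for number 3. The mice of number 1 shared batch 1 and those of number 3 batch 2, while those of number 2 came from different batches. These values therefore cannot separate a pairing by number from the batch. With the replicate block, *Apoe* in oligodendrocytes had -1.37 (edgeR FDR 0.142). Against Astrocytes_1, 0 combinations passed an FDR of 0.05 with any mouse left out. For *Apoe* in oligodendrocytes, the lowest FDR against Astrocytes_1 over the 11 alternatives that tested it was 0.0549.

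Signs turned with no batch term and with the replicate block, in this order, for *Apoe* in Astrocytes_1 (-0.13 and -0.12), *Vldlr* in oligodendrocytes (-0.14 and -0.11), *Sorl1* in Astrocytes_1 (-0.34 and -0.23) and *Pltp* in pericytes (0.13 and 0.089), and with thinning for *Lrp1* in OPC_1 (0.099). With each mouse left out, the log2 fold change ran from -0.28 to 0.61 for *Apoe* in microglia, -0.12 to 0.60 for *Clu* in Astrocytes_1, -0.61 to 0.11 for *Clu* in Astrocytes_2, -0.20 to 0.085 for *Lpl* in excitatory neurons, -0.14 to 0.42 for *Lpl* in microglia, -0.23 to 0.15 for *Lrp1* in OPC_1, -0.41 to 0.33 for *Lrp8* in endothelial cells, -0.13 to 0.55 for *Vldlr* in oligodendrocytes and -0.22 to 0.66 for *Sorl1* in Astrocytes_1. None of these was called, and the cause was not tested. Between batches, 6 changed combinations became 2 with thinning (18 tested) and 15 with no filter (77 tested), and 4 to 6 with each mouse left out.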
